A study of Mus musculus with 54 samples.

Results

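The genes described here code for the subunits of the respiratory chain and ATP synthase in mouse macrophages. Members were protein-coding genes with symbols beginning Nduf (assembly factors named Ndufaf left out), Uqcr, Cox4 to Cox8 or Atp5, plus Sdha, Sdhb, Sdhc and Sdhd and the 13 protein-coding genes of the mitochondrial chromosome. The rule took 98 of 39179 genes, of which 85 are nuclear and 13 mitochondrial. By complex, 38 nuclear and 7 mitochondrial genes fell under complex I, 4 nuclear genes under complex II, 8 and 1 under complex III, 18 and 3 under complex IV, and 17 and 2 under complex V. No measured value entered the rule. Cyc1, the cytochrome c1 subunit of complex III, is not reached by these symbols and was not counted.

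Complex I passes electrons from NADH, and complex II from succinate, to ubiquinone. Complex III hands them on to cytochrome c and complex IV to oxygen, and complex V, the ATP synthase, makes ATP from the proton gradient that complexes I, III and IV build. Complexes I, III, IV and V mix subunits from the nuclear genome with subunits made inside the mitochondrion, whereas complex II is wholly nuclear. The mitochondrial genome is read into long precursor RNAs from both strands that are cut at the tRNAs into the single messages. Genes read from the same strand thus share their start of transcription, while their steady levels can differ. Of the members, mt-Nd6 alone lies on the minus strand. Macrophages activated with LPS and IFNγ are known for a glycolytic metabolism, and those activated with IL-4 for respiration.

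All cells were thioglycolate-elicited peritoneal macrophages of C57BL/6 mice aged 8 to 20 weeks, that is, adherent cells of the peritoneal exudate with no genetic modification. In the 24 h experiment, cells of 3 mice stayed unpolarized (M0), received LPS at 100 ng/ml together with IFNγ at 50 ng/ml for 24 h (M1-like), or received IL-4 at 10 ng/ml for as long (M2-like), and each was sequenced as a pair of technical replicates with single reads of 50 bases. In the transfection experiment, cells were polarized for 24 h in the same way, with 12 conditions of 3 replicates and paired reads of 150 bases. Transfected and mock cells were harvested 48 h after transfection. For profiles without transfection the methods name 24 h after polarization, and no separate harvest time for the untransfected cells of this experiment. The word later below names this experiment and does not state a harvest time of its untransfected cells. The conditions were untransfected M0, M1-like and M2-like cells, the same 3 given the transfection reagent alone (mock), and M2-like cells given a negative siRNA pool, siRNA pools against E2f1, Myc, Pparg or Stat6 alone, or all 4 pools combined. Transfected M2-like cells were kept without IL-4 after transfection. The experiments differ in read length and, for transfected cells, in time. For the transfection experiment the methods speak of biological replicates of M0, M1-like, M2-like and combined-pool cells at RNA extraction and name no animals, so its p-values measure the spread between these samples, which may be technical.

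Levels are CPM, a gene's counts relative to the library's total, scaled by TMM, a factor that evens out the bulk of genes between libraries. A gene was called where edgeR's quasi-likelihood test, fitted over all genes of an experiment, gave a Benjamini-Hochberg adjusted p under 0.05, and fold changes are log2 values with their standard errors (SE). Libraries held 19714994 to 29880494 counts in the 24 h experiment and 13421854 to 19704195 in the transfection experiment. The marker list of macrophages (6 of 6 genes found, Adgre1, Csf1r, Lyz2, Cd68, Itgam and Mertk) summed to 16063 to 17334 CPM in M0, 10129 to 11072 in M1-like and 12675 to 13007 in M2-like cells at 24 h, and to 6162 to 7738 CPM in the later M1-like cells against 11456 to 18252 in the other later conditions. The mesothelial and fibroblast list (5 of 5 found) was lower in M1-like cells as well, at 4.43 to 6.72 against 17.5 to 29.9 CPM in M0 at 24 h and 17.1 to 76.4 against 90.4 to 390.2 CPM later, with 1 of its 5 genes at 0 in M1-like cells at 24 h. Lists of T cells, B cells, neutrophils, eosinophils and mast cells each stayed at or below 45.8 CPM in every sample. The part of these lists in the results below was not tested, and in bulk RNA fewer transcripts per cell and fewer cells of one kind cannot be told apart. Against the negative pool, the single pools lowered their targets by log2 fold changes of -1.98 for E2f1, -1.38 for Myc, -2.19 for Pparg and -1.87 for Stat6, and the combined pool gave -0.73, -1.34, -1.82 and -0.89.

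Nearly all of the chain was expressed. Of the 85 nuclear genes, 81 passed the filter on low counts at 24 h and 80 later, and all 13 mitochondrial genes passed in both. Per kb of exon, the mitochondrial messages stood far above the nuclear ones: in M0 cells at 24 h mt-Co1, the catalytic subunit of complex IV, reached 3392 CPM per kb, mt-Nd1 1486 and mt-Cytb 1349, whereas the highest nuclear genes were Atp5a1, the alpha subunit of ATP synthase, at 149 and Cox6a1 at 139 CPM per kb. The highest members of the other complexes were Ndufa2 at 94.4, Sdhd at 74.4 and Uqcr10 at 55.5 CPM per kb. Lowest among the expressed subunits of complexes II, III and V were Sdhc at 26.1, Uqcrc1 at 25.2 and Atp5s at 2.07 CPM per kb. Exon length here joins the exons of all annotated transcripts, and the order of nuclear genes depends on it. Atp5b spans 4237 bases this way, but its longest coding transcript has 1916, against 2674 for Atp5a1. At 523 against 467 CPM, Atp5b stood above Atp5a1 by transcript length. The 4 genes that passed in neither experiment are known as isoforms of other tissues, and Ndufa4l2 passed at 24 h but not later. Cox7b2 and Cox8c had no count in either experiment, which allows at most 0.00690 CPM over the 24 h experiment and 0.00517 CPM over the other (3 counts of the total, counting error only). Cox8b had 0 and 14 counts and Cox4i2, the lung isoform of subunit 4, had 6 and 34.

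Some values depend on where reads were placed, and this differs between the experiments. Many respiratory chain genes have processed pseudogenes, copies of the spliced message elsewhere in the genome, and parts of the mitochondrial genome recur in the nuclear one. Over 22 members with such copies, Atp5l held 29.1% of the counts of itself plus its pseudogenes at 24 h and 2.03% in the transfection experiment, Atp5h 38.3% and 5.64%, and Ndufa12 55.3% and 15.3%, whereas Ndufs6 went from 62.4% to 100% and mt-Co1 from 83.9% to nearly 100%. Whether these reads came from the gene or from its copies was not tested. Where adding the pseudogene counts turned the sign of a value given here, the value with them stands beside it.

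**Figure D1:**
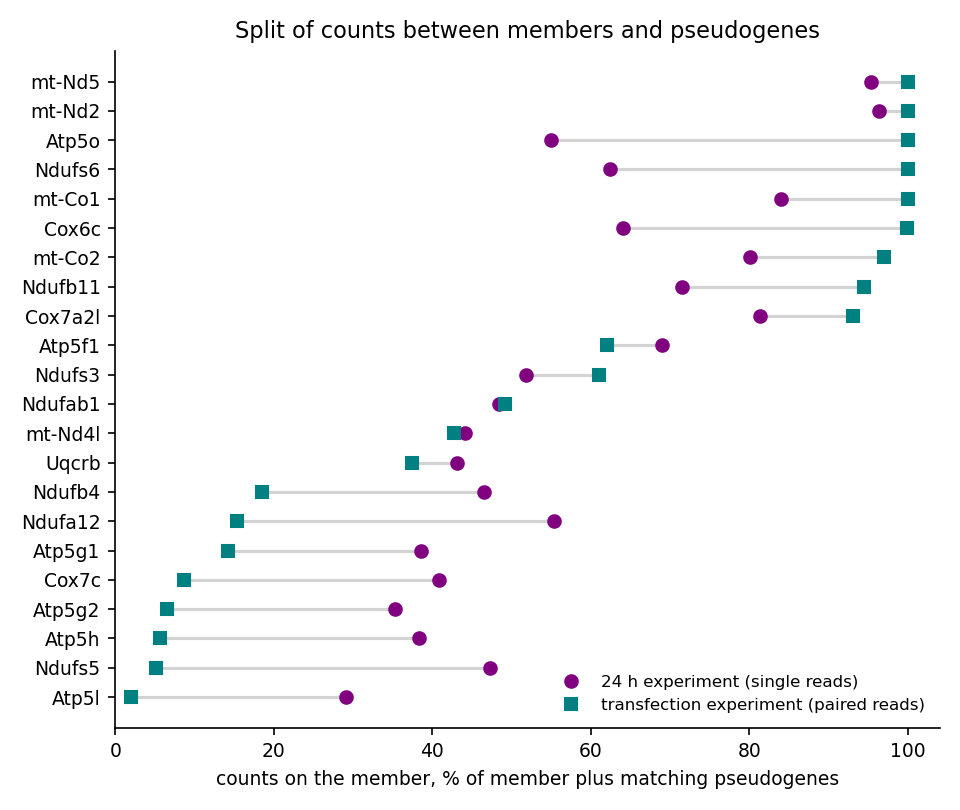
Share of counts on the member itself, in % of member plus matching pseudogenes (x axis), for the 22 members with such copies (y axis), with circles for the 24 h experiment and squares for the transfection experiment. Atp5l, Ndufs5, Atp5h, Atp5g2 and Cox7c lie under 10% with paired reads of 150 bases and between 29.1% and 47.3% with single reads of 50 bases, and Atp5o and Ndufs6 move the other way.

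One mitochondrial gene could not be followed between the experiments. mt-Atp8 codes for a small subunit of ATP synthase and shares its end with the start of mt-Atp6 on the same message. The shared stretch lies at chrM:7927-7969 (GRCm38, plus strand, 43 bases, coding in both genes) and is shown because a fragment that covers it belongs to both genes, with the start codon of mt-Atp6 and the stop codon of mt-Atp8 in it:
mt-Atp8 and mt-Atp6 overlap: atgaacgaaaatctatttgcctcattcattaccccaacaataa
mt-Atp8 was at 178 ± 4.87 CPM (SD, n = 3) in M0 cells at 24 h and at 1.75 ± 0.127 CPM in M0 cells of the transfection experiment, while mt-Atp6 was at 901 ± 12.4 and 902 ± 63.0 CPM. The gene spans 204 bases, and the reads of the transfection experiment are 150 bases long. How fragments over the shared stretch were counted is not given in the sources used here, and later fold changes of mt-Atp8 rest on these low counts.

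M1-like polarization for 24 h went with lower levels of the mitochondrial messages, and M2-like polarization with slightly higher ones. Against M0, 12 of 13 mitochondrial genes fell in M1-like cells and none rose, with a median log2 fold change of -0.43 against -0.037 over all genes. The nuclear subunits went both ways, 33 of 81 higher and 20 lower with a median of 0.13, where 35.4% of all genes tested were called higher and 37.5% lower. The steepest falls were in complex I genes, but mt-Nd5 (-0.28) and mt-Nd6 (-0.25) of the same complex fell least among the genes called. mt-Nd3 changed by -0.85 ± 0.16 (SE, adjusted p = 4.1e-04), mt-Nd2 by -0.81 ± 0.099 (SE, adjusted p = 1.2e-05) and mt-Nd1 by -0.68 ± 0.089 (SE, adjusted p = 2.2e-05). mt-Nd1 was at 1404, 1403 and 1459 CPM in M0 cells of mice 1 to 3, at 899, 936 and 828 in M1-like cells and at 1969, 1587 and 1566 in M2-like cells. All 3 M1-like samples lay below all M0 samples, and all M0 samples below all M2-like ones. mt-Cytb, the mitochondrial subunit of complex III, was at 1514, 1552 and 1564 CPM in M0 cells, 1153, 1184 and 1099 in M1-like and 1975, 1621 and 1520.4 in M2-like cells. The M1-like samples were again the lowest, while M2-like mouse 1 stood well above the other M2-like samples. mt-Co1 did not follow, at 5201, 5137 and 5384 CPM in M0 and 5390.4, 5189.5 and 4945 in M1-like cells, a log2 fold change of -0.018 ± 0.070 (SE, adjusted p = 0.83), and the groups overlapped. Calls were lost without 1 sample for mt-Nd5 (without M0 mouse 2 or 3, adjusted p = 0.06 and 0.053), for mt-Nd6 (without mouse 2 or 3 of either group, 0.057 to 0.066) and for mt-Atp8 (without M1-like mouse 3, 0.06). Scaled by total counts alone, the median of all genes moved by -0.43 and that of the mitochondrial genes was -0.86. The members called then split 6 higher to 66 lower in place of 33 to 32. The share of all genes called under this scaling was not counted, here or below, so such splits cannot be set against it.

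M2-like cells at 24 h had all 13 mitochondrial genes above M0, with a median of 0.16, but mt-Nd1 alone passed the test, at 0.26 ± 0.088 (SE, adjusted p = 0.044), and its call was lost without any one M0 sample or without M2-like mouse 1 (adjusted p = 0.074 to 0.13). The summed mitochondrial messages were 18903 CPM in M2-like mouse 1 and 15425 and 15292 in mice 2 and 3, beside 14797 to 15429 in M0. The mitochondrial ribosomal RNAs of the same libraries summed to 247 to 1214 CPM, with mouse 1 the highest, against 230.1 to 369.9 in M0. Nuclear subunits were higher in 37 of 81 genes and lower in 1, where 13.5% of all genes were called higher and 14.4% lower, with a median of 0.18 against 0.00054 over all genes. Without M0 mouse 2 the count of members called higher was 23 in place of 38.

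The direct comparison of the polarized cells set M1-like below M2-like cells in 12 of 13 mitochondrial genes at 24 h, with a median of -0.55, and in 11 of 13 in the untransfected cells of the later experiment, with a median of -0.97. Among nuclear subunits 16 of 81 were higher and 31 lower at 24 h, and 18 of 80 higher and 22 lower later. Over all genes, 34.6% were called higher and 38.1% lower at 24 h, and 31.3% and 30.2% later. Between mock-treated cells, 9 mitochondrial genes were lower and mt-Co1 higher, beside 19 nuclear genes higher and 18 lower, where 30.9% and 29.8% of all genes were called. The largest later falls lay among the genes from mt-Nd3 to mt-Cytb, which lie after mt-Co3 on the chromosome. mt-Nd4l changed by -1.48 ± 0.21 (SE, adjusted p = 4.7e-07), mt-Nd3 by -1.42 ± 0.25 (SE, adjusted p = 1.2e-05), mt-Cytb by -1.40 ± 0.17 (SE, adjusted p = 2.7e-08) and mt-Nd4 by -1.34 ± 0.15 (SE, adjusted p = 3.5e-09). mt-Co1 changed by -0.028 ± 0.11 (SE, adjusted p = 0.84) in untransfected cells and by 0.31 ± 0.11 (SE, adjusted p = 0.019) in mock-treated cells. The mock call was lost without M1-like mock replicate 1 or 3 or M2-like mock replicate 3 (adjusted p = 0.11, 0.11 and 0.11), as were those of mt-Nd3 (without replicate 1 of either group or M1-like mock replicate 2, 0.089 to 0.27) and mt-Nd4l (without M2-like mock replicate 1, 0.057). Total-count scaling moved the median of all genes by -0.44 at 24 h, 0.20 in untransfected and 0.22 in mock-treated cells, and split the members called higher and lower 2 to 80 in place of 16 to 43 at 24 h, 32 to 23 in place of 18 to 33 later, and 37 to 15 in place of 20 to 27 in mock-treated cells. The mitochondrial medians were then -0.98, -0.78 and -0.35, and in mock-treated cells the calls of mt-Atp6, mt-Nd1, mt-Nd2 and mt-Nd3 were lost. How many of all genes were called under total-count scaling was not counted, so whether these splits differ from all genes was not tested.

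**Figure D2:**
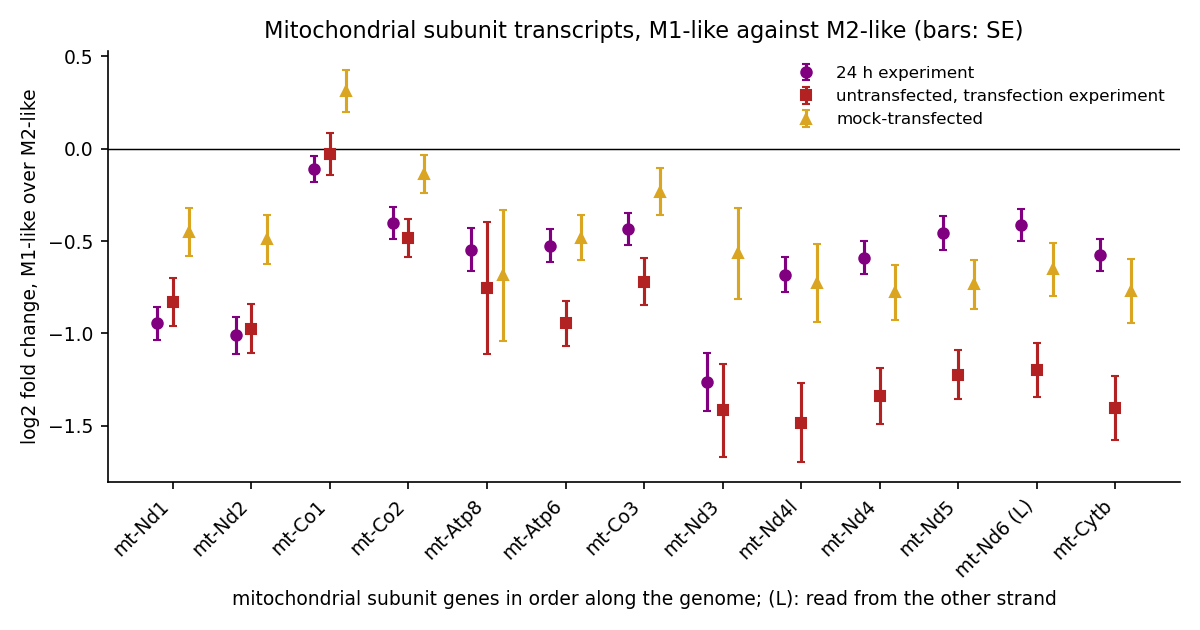
Log2 fold change of the 13 mitochondrial genes (y axis) in the order they lie on the mitochondrial chromosome (x axis), with error bars of 1 SE. mt-Co1 lies nearest to 0 in M1-like against M2-like cells, at -0.11 at 24 h and -0.028 later, and the genes from mt-Nd3 to mt-Cytb lie between -1.48 and -1.20 in the later untransfected cells.

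A ratio of 2 mitochondrial messages within a library needs no scaling. mt-Cytb over mt-Co1 was 0.291 to 0.302 in M0 cells at 24 h, 0.214 to 0.228 in M1-like cells and 0.283 to 0.320 in M2-like cells, so that the M1-like samples lay below the others without overlap. mt-Cytb over mt-Nd1 went the other way, at 1.07 to 1.11 in M0, 1.26 to 1.33 in M1-like and 0.971 to 1.02 in M2-like cells, with M1-like samples the highest. In the later untransfected cells mt-Cytb over mt-Co1 was 0.266 to 0.290 in M0, 0.0535 to 0.157 in M1-like and 0.265 to 0.289 in M2-like cells. In M1-like mock cells this ratio was 0.0821 to 0.152. mt-Cytb over mt-Nd1 was 0.830 to 0.976, 0.480 to 0.734 and 0.866 to 0.971 in the untransfected cells. It was lowest in M1-like cells without overlap, opposite to the 24 h experiment, where it was highest in them. In mock cells it was 0.594 to 0.740 in M1-like and 0.724 to 0.960 in M0 cells, which overlapped. The M1-like samples were spread over a wide range, with replicate 1 the lowest. mt-Cytb itself was at 342, 748 and 798 CPM in the untransfected M1-like replicates 1 to 3, at 1282, 1503 and 1405 in M0 and at 1579, 1557 and 1861 in M2-like cells, so the M1-like replicate nearest the others was still under all of them. Without M1-like replicate 1, mt-Cytb was -1.11 (adjusted p = 1.1e-08) against M2-like cells. Against M0 in the same experiment 10 of 13 mitochondrial genes fell in M1-like cells and none rose, with a median of -0.67, and 18 of 80 nuclear genes were higher and 24 lower, where 29% of all genes were called higher and 28.7% lower. Total-count scaling split the members 27 higher to 25 lower in place of 18 to 34. The call of mt-Co3 in that comparison, -0.38 ± 0.13 (SE, adjusted p = 0.012), was lost without M0 replicate 3 or M1-like replicate 1 or 2 (adjusted p = 0.062, 0.13 and 0.055). The M1-like to M2-like difference was itself compared between mock-treated and untransfected cells. No nuclear and no mitochondrial gene was called by edgeR, although 12 of 13 mitochondrial genes had an unadjusted p under 0.05 and a median difference of 0.49, where 0.0353% of all genes were called higher and 1.09% lower. DESeq2 called none of them either, and without untransfected M1-like replicate 3 edgeR called 2 members.

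Reads shared with nuclear copies touch the mitochondrial genes unequally. Of the stretches of 50 bases along each message, 100% were shared with another annotated gene for mt-Co2 and 98.8% for mt-Nd4l. The share was 99.9% for mt-Co3, 99.5% for mt-Atp6, 98.0% for mt-Nd3, 62.2% for mt-Nd4 and 51.1% for mt-Co1. It was 8.19% for mt-Nd2 and 7.61% for mt-Nd5, with none shared for mt-Nd1, mt-Cytb, mt-Nd6 and mt-Atp8. Copies of mt-Co3, mt-Atp6, mt-Nd3 and mt-Nd4 were not among the counted genes, so adding pseudogene counts did not cover these 4. The part of shared reads in the fold changes was not tested.

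Over the 12 later conditions the sum of the nuclear subunits varied little, whereas that of the mitochondrial ones varied widely. The 85 nuclear genes summed to 4789 ± 75.4 CPM in M0 (SD, n = 3), 5449 ± 164 in M1-like and 5565 ± 201 in M2-like cells at 24 h, and to means between 6338 and 6815 CPM in the 12 later conditions. The 13 mitochondrial genes summed to 15044 ± 338 CPM in M0 cells, 12393 ± 423 in M1-like and 16540.1 ± 2047 in M2-like cells at 24 h. Later they summed to 14996 ± 673 CPM in M0 cells, 12394 ± 2058 in M1-like and 18369.7 ± 1041 in M2-like cells. The later M2-like cells held the most, and each M2-like condition that was transfected had a lower mean. The sum was 14877 ± 1157 CPM in M2-like mock cells, 10693 ± 103 with the negative siRNA pool, 9473 ± 913 with the combined pool, 9429 ± 299 with Myc, 10919 ± 818 with Pparg, 11444 ± 731 with Stat6 and 13024 ± 73.1 with E2f1 siRNA. Samples of untransfected M2-like cells (17438 to 19493), of the mock (13652 to 15951) and of the negative pool (10591 to 10797) did not overlap. The combined (8615 to 10433) and Myc (9120.1 to 9718) pools lay below the negative pool and the E2f1 pool (12977 to 13109) above it, while the Pparg (10042 to 11662) and Stat6 (10609 to 11966) pools overlapped it. Per total counts alone the combined pool (8929 to 11116) overlapped the negative pool (10240.5 to 10369), with the Myc pool (9632 to 10196) below it and the E2f1 pool (12604 to 12907) above it. M0 mock cells, at 14781 ± 1882 CPM, and M1-like mock cells, at 13416 ± 1894, overlapped their untransfected counterparts. The mitochondrial ribosomal RNAs, which are no members, went the other way in M2-like cells, with 378 to 403 CPM untransfected, 441 to 481 in the mock and 518 to 647 with the negative pool.

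**Figure D3:**
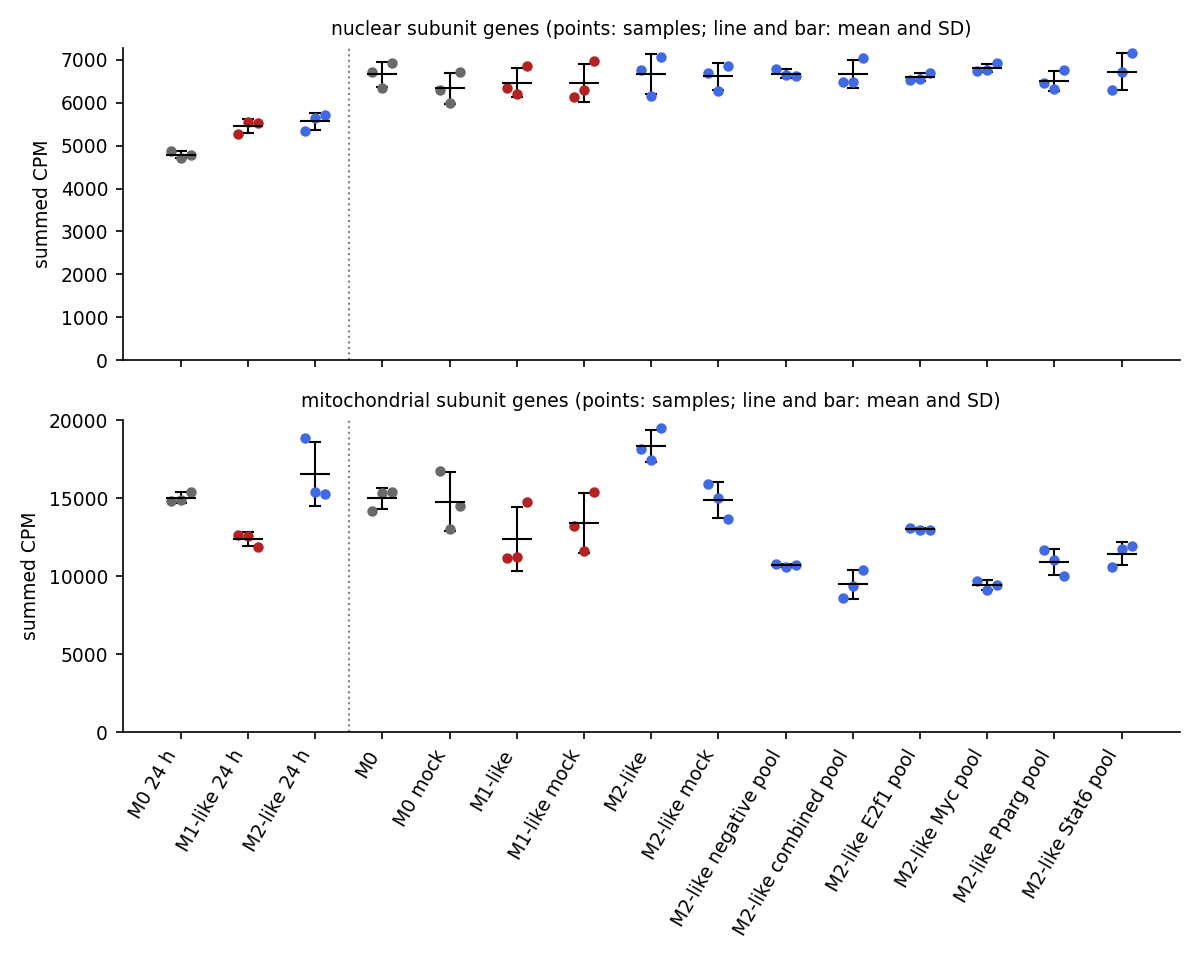
Summed TMM-scaled CPM of the nuclear and of the mitochondrial members (y axes) in each of the 15 conditions (x axis), with a point for each sample and the mean with its SD. The nuclear means of the 12 later conditions lie between 6338 and 6815 CPM, whereas the mitochondrial means run from 9429 CPM with Myc siRNA to 18369.7 CPM in untransfected M2-like cells.

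Which genes the reagent and the control pool went with was tested in M2-like cells. Between mock and untransfected cells no member passed the test in edgeR or DESeq2, where 1.67% of all genes were called higher and 0.0988% lower. All 13 mitochondrial genes were below their untransfected level in the mock, with a median of -0.34, and 9 of them and 3 nuclear genes had an unadjusted p under 0.05. Without the filter on low counts 9 members were called lower. Mock cells were harvested 48 h after transfection, and the untransfected cells have no separate harvest time. Time and IL-4 after polarization may differ too, and cannot be told apart from the reagent. The negative pool against the mock lowered 10 of 13 mitochondrial genes, with a median of -0.56, beside 2 nuclear genes higher and 1 lower of 80, where 6.67% of all genes were called higher and 5.03% lower. mt-Nd4 was at 977, 951 and 887 CPM in the mock and 557, 549 and 573 with the negative pool, -0.75 ± 0.15 (SE, adjusted p = 7.2e-04). mt-Nd5 was at 968, 939 and 844 and 539.9, 527 and 586 CPM, -0.74 ± 0.13 (SE, adjusted p = 2.1e-04). The negative pool lay below the mock in every replicate for both. mt-Co1 was at 5489.6, 5147 and 4539 and 4132, 4133 and 4052 CPM, -0.30 ± 0.11 (SE, adjusted p = 0.082), and did not pass. The ratio of mt-Cytb to mt-Co1 was 0.244 to 0.255 in the mock and 0.194 to 0.199 with the negative pool, with no overlap, while that of mt-Cytb to mt-Nd1 overlapped, at 0.745 to 0.909 and 0.778 to 0.852. Calls were lost for mt-Co3 and mt-Cytb without mock replicate 1 (adjusted p = 0.067 and 0.0501), for mt-Nd4l without mock replicate 1 or negative pool replicate 1 or 2 (0.056 to 0.16), and for mt-Nd6 without negative pool replicate 2 (0.053). The 3 nuclear calls were Ndufa12, 0.57 ± 0.18 (SE, adjusted p = 0.03) and 0.11 with pseudogene counts added, Ndufs4, 0.28 ± 0.079 (SE, adjusted p = 0.018), and Ndufa8, -0.37 ± 0.093 (SE, adjusted p = 0.0067). Members called higher numbered 1 without mock replicate 1 or negative pool replicate 2 and 0 without mock or negative pool replicate 3, and the call of Ndufa8 was lost without mock replicate 3 (adjusted p = 0.093).

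With TMM scaling, nuclear subunits of one complex went both ways at 24 h, whereas total counts split the members 6 to 66 and 2 to 80, as given above. In M1-like against M0 cells complex I had 14 of 38 genes higher and 8 lower, complex II 2 of 4 and 1, complex III 3 of 8 and 1, complex IV 9 of 14 and 5, and complex V 5 of 17 and 5, where 35.4% of all genes were called higher and 37.5% lower. Against M2-like cells the counts were 8 and 14 for complex I, 1 and 2 for complex II, 1 and 2 for complex III, 5 and 4 for complex IV, and 1 and 9 for complex V, where 34.6% and 38.1% of all genes were called. Complex IV held the largest rise apart from the nearly silent Ndufa4l2. Cox7a2 (GRCm38 chr9:79755361-79759878, minus strand), the common isoform of subunit 7a, was at 57.2, 55.3 and 55.7 CPM in M0 cells, 94.9, 105 and 109 in M1-like and 68.4, 68.6 and 65.9 in M2-like cells, so that the 3 groups did not overlap and M1-like cells were highest. Its log2 fold change was 0.88 ± 0.060 (SE, adjusted p = 5.7e-08) against M0 and 0.61 ± 0.060 (SE, adjusted p = 1.7e-06) against M2-like cells. Cox7b and Cox5a, further nuclear subunits of complex IV, rose in both polarized states, by 0.74 ± 0.071 and 0.68 ± 0.069 in M1-like and by 0.47 ± 0.071 and 0.42 ± 0.069 in M2-like cells (SE). Cox7a2l fell in both, from 121, 117 and 116 CPM in M0 to 94.5, 96.9 and 89.6 in M1-like and 82.2, 91.4 and 90.1 in M2-like cells. Its fold changes were -0.34 ± 0.059 (SE, adjusted p = 2.5e-04) and -0.43 ± 0.059 (SE, adjusted p = 2.9e-04). Every polarized sample was below every M0 sample. It was the 1 member called lower in M2-like cells at 24 h. Cox4i1, the common isoform of subunit 4, was lower in M1-like cells, at -0.18 ± 0.057 (SE, adjusted p = 0.011), a call lost without M0 mouse 1 or M1-like mouse 1 (adjusted p = 0.067 and 0.051). In complex V, Atp5b, the catalytic beta subunit, was at 529.6, 509.9 and 529 CPM in M0 cells, 761, 777 and 762 in M1-like and 685, 713 and 743 in M2-like cells, with both polarized groups above M0 by 0.55 ± 0.056 and 0.45 ± 0.056 (SE).

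In complex I, Ndufs8 (GRCm38 chr19:3908863-3912774, minus strand) was lower in M1-like cells in every comparison. It codes for a core subunit that carries iron-sulfur clusters on the way of the electrons to ubiquinone. Its level was 32.4, 28.3 and 29.0 CPM in M0 cells, 19.0, 21.7 and 22.3 in M1-like and 36.5, 41.3 and 46.3 in M2-like cells at 24 h. M1-like samples were lowest, M2-like highest, and no 2 groups overlapped. Later it was 46.3, 41.1 and 44.7 CPM in M0 cells, 21.4, 18.9 and 23.7 in M1-like and 49.6, 44.6 and 47.2 in M2-like cells. The M1-like samples were below all others, while M0 and M2-like samples overlapped. The M1-like to M2-like log2 fold change was -0.98 ± 0.097 (SE, adjusted p = 1.9e-06) at 24 h, -1.14 ± 0.088 (SE, adjusted p = 5.8e-13) in later untransfected cells and -1.17 ± 0.087 (SE, adjusted p = 3.0e-13) in mock-treated cells. Ndufa4 (chr6:11900292-11907497, minus strand), once counted with complex I and now placed in complex IV, was at 58.6, 60.9 and 59.4 CPM in M0 cells, 44.8, 43.9 and 43.2 in M1-like and 73.1, 70.1 and 67.6 in M2-like cells at 24 h, and the groups did not overlap. Its M1-like to M2-like fold changes were -0.68 ± 0.053 at 24 h, -0.67 ± 0.11 untransfected and -0.57 ± 0.11 mock (SE), with 47.5, 53.5 and 52.7 against 82.5, 76.8 and 85.3 CPM in the later untransfected cells. Ndufb11 (chrX:20615326-20617619, minus strand), an accessory subunit of the membrane arm, was at 21.6, 22.6 and 24.3 CPM in M1-like and 30.9, 37.6 and 38.4 in M2-like cells at 24 h, and at 33.1, 30.1 and 34.5 and 52.4, 45.3 and 52.1 CPM later, below M2-like cells in every sample. Its exons overlap Rbm10 on the other strand by 117 bases. Ndufb2, another accessory subunit, was low, at 5.86, 4.98 and 4.89 and 9.98, 8.73 and 7.73 CPM at 24 h, and changed by -0.75 ± 0.12, -0.81 ± 0.18 and -0.82 ± 0.18 (SE). It shares exon bases with genes on both strands, so its counts are uncertain.

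Other complex I genes rose in M1-like cells. Ndufs3, a core subunit, was at 32.7, 34.2 and 31.6 CPM in M1-like and 22.5, 25.1 and 26.2 in M2-like cells at 24 h and at 30.3, 27.4 and 28.3 and 20.2, 14.6 and 21.8 CPM later, M1-like cells being higher in every sample. Its fold changes were 0.41 ± 0.072 (SE, adjusted p = 2.5e-04) and 0.61 ± 0.11 (SE, adjusted p = 1.4e-05), and 51.8% and 61.0% of the counts it shares with its pseudogene fell on the gene. With total-count scaling the 24 h value was -0.024. Ndufs4, an accessory subunit, was at 30.1 ± 0.718 CPM in M0 and 46.6 ± 4.14 (SD, n = 3) in M1-like cells at 24 h, 0.63 ± 0.078 (SE, adjusted p = 1.4e-05), with no overlap. Ndufv3, Ndufa1 and Ndufa11 were higher in M1-like than M2-like cells at 24 h by 0.59 ± 0.085, 0.44 ± 0.085 and 0.42 ± 0.13 (SE), and with total-count scaling they were 0.15, 0.0060 and -0.015. Ndufa1 turned in the later untransfected cells, at -0.51 ± 0.22 (SE, adjusted p = 0.048), and was -0.28 ± 0.22 (SE, adjusted p = 0.27) in mock-treated cells, which did not pass.

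Complex II, the one complex with no mitochondrial gene, split within itself. Sdhd (chr9:50596357-50603812, minus strand), one of the 2 membrane anchors, rose in M1-like cells, while Sdha, the flavoprotein that oxidizes succinate, was lower there than in M2-like cells. Sdhd was at 93.5, 89.2 and 91.9 CPM in M0 cells, 158, 158 and 148 in M1-like and 132, 109.8 and 111 in M2-like cells at 24 h, and at 80.1, 82.5 and 85.5, 137, 136 and 136 and 97.4, 83.7 and 99.99 CPM in the same order later. M1-like samples were the highest in both experiments without overlap. Its fold changes were 0.76 ± 0.074 (SE, adjusted p = 1.7e-06) at 24 h and 0.72 ± 0.082 (SE, adjusted p = 5.5e-09) later against M0, and 0.39 ± 0.074 (SE, adjusted p = 4.5e-04), 0.54 ± 0.082 (SE, adjusted p = 1.0e-06) and, in mock-treated cells, 0.63 ± 0.081 (SE, adjusted p = 5.9e-08) against M2-like cells. With total-count scaling the 24 h value against M2-like cells was -0.044. Sdha changed by -0.34 ± 0.051 (SE, adjusted p = 7.1e-05) at 24 h, -0.20 ± 0.055 (SE, adjusted p = 0.0019) untransfected and -0.27 ± 0.055 (SE, adjusted p = 1.2e-04) mock, and was 176 ± 2.34 against 223 ± 3.81 CPM at 24 h. Total-count scaling left later values of -0.0096 and -0.046, past no threshold. Against M0, Sdha was -0.13 ± 0.051 (SE, adjusted p = 0.039) in M1-like cells at 24 h, a call lost in every fit without 1 sample (adjusted p = 0.058 to 0.16) and at 0.063 with the mouse as a block. Sdhb, the iron-sulfur subunit, was -0.087 ± 0.069 (SE, adjusted p = 0.27) between M1-like and M2-like cells at 24 h and did not pass, and Sdhc, the other anchor, was -0.19 ± 0.051 (SE, adjusted p = 0.0055). All 4 genes rose in M2-like against M0 cells at 24 h, by 0.21 ± 0.051, 0.29 ± 0.069, 0.20 ± 0.051 and 0.36 ± 0.074 (SE) from Sdha to Sdhd, the call of Sdhc being lost without M0 mouse 2 or 3 (adjusted p = 0.052 and 0.055).

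Ndufs8 and Sdhd, which moved in opposite directions, both carry the core of an ETS factor site close to the start of transcription. ETS proteins such as GABP (also called nuclear respiratory factor 2) are known regulators of respiratory chain genes. The promoters are shown from 250 bases before to 50 after the start (RefSeq, GRCm38.p6), 5′ to 3′ on the gene's strand, with the reverse complement of the ETS letters CCGGAAG in capitals. The Ndufs8 window is chr19:3912725-3913024 and the Sdhd window chr9:50603800-50604099, both on the minus strand:
Ndufs8: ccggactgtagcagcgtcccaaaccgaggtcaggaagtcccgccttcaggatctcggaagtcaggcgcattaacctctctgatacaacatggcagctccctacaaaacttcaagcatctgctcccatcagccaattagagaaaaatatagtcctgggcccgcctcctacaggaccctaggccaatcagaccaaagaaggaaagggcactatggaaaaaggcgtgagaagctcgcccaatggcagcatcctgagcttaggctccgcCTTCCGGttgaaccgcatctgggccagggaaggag
Sdhd: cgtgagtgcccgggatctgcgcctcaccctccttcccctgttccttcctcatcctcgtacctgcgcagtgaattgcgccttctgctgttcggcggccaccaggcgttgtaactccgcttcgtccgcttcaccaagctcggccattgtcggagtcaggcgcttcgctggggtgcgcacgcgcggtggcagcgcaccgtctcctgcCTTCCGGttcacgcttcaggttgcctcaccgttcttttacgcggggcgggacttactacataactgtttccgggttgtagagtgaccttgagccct
Promoters of Cox7a2, Ndufa4 and Ndufb11 held no match to any of the 5 motifs searched in the same window. Of 85 nuclear members, 68 matched a promoter by symbol. The ETS letters, on either strand, were in 16 of 68 (23.5%) against 9.93% of 27025 promoters, the NRF1 letters GCGCATGC in 10 (14.7% against 3.05%) and the YY1 letters AAGATGG in 11 (16.2% against 7.28%). The E-box CACGTG, the letters bound by Myc with its partner, was in 6 (8.82% against 8.09%), and TATAAA in 7 (10.3% against 15.7%). The matches are a description of the letters in these windows.

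**Figure D4:**
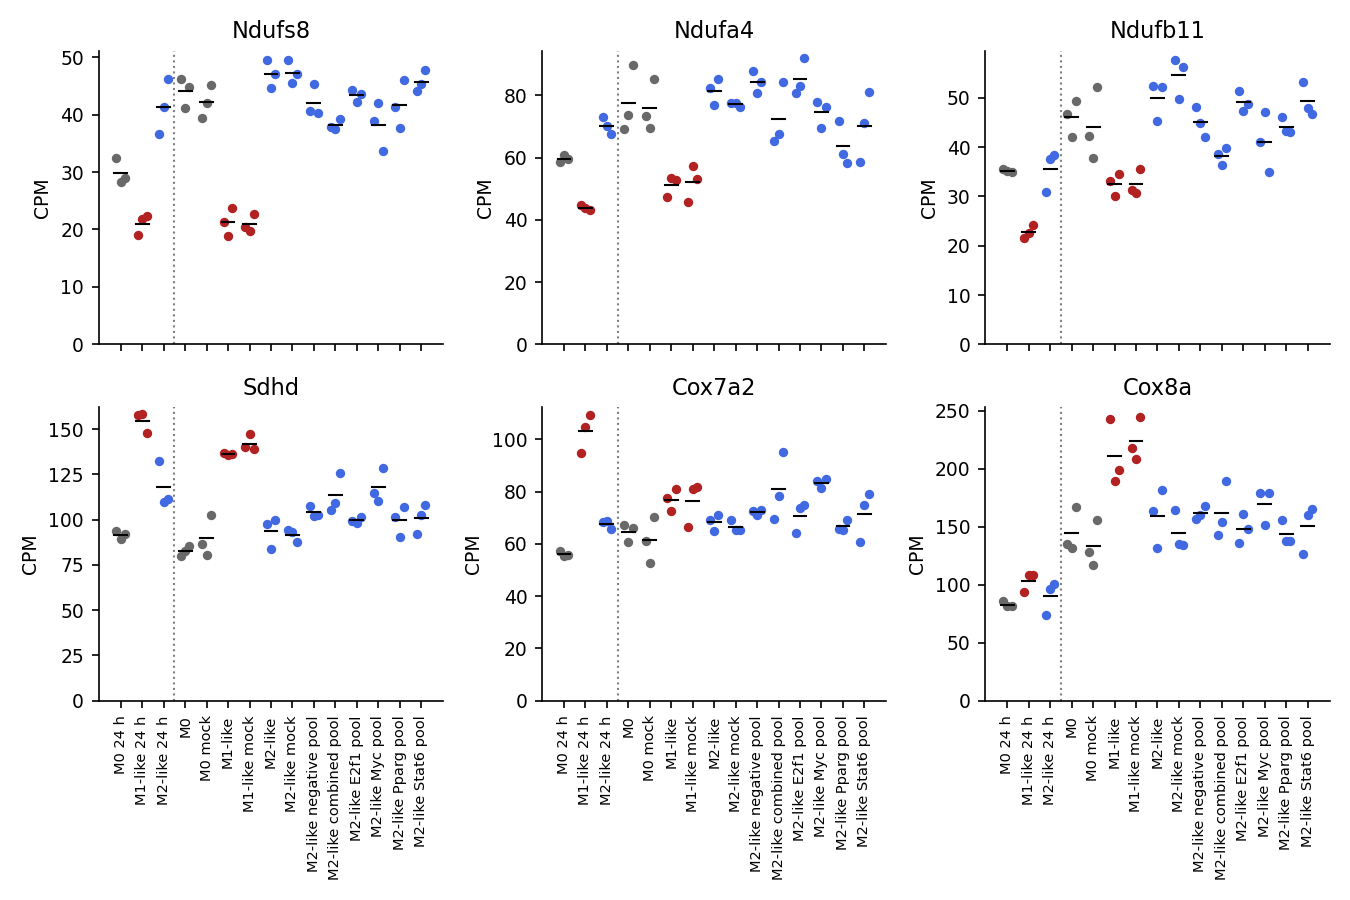
TMM-scaled CPM (y axes) of Ndufs8, Ndufa4, Ndufb11, Sdhd, Cox7a2 and Cox8a in every sample of the 15 conditions (x axis), with a line at each mean. Ndufs8 lies at 19.0 to 22.3 CPM in M1-like cells at 24 h and at 18.9 to 23.7 and 19.8 to 22.8 CPM in later M1-like and M1-like mock cells, below every other sample of the same experiment, and Sdhd is highest in M1-like cells in both experiments, although with total-count scaling it was -0.044 against M2-like cells at 24 h.

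How far the nuclear differences held from one experiment to the other was counted on the M1-like to M2-like comparison, whose samples are separate. Of 80 nuclear genes tested in both, 46 were called at 24 h and 40 in later untransfected cells, and 29 in both, a share of 29 of 46 and 29 of 40. Of the 29, 5 were higher in M1-like cells in both (Cox6a1, Cox7c, Ndufa10, Ndufs3 and Sdhd), 17 lower in both, and 7 had opposite signs. Over the 13648 genes tested in both experiments, 75% were called at 24 h, 61.7% later and 48.8% in both, with 18.9% higher in both, 18.9% lower in both and 11% of opposite sign. Of the members called at 24 h 63.0% were called later, beside 65.0% of all genes, and of those called later 72.5% at 24 h, beside 79.1%. With total-count scaling 35 members were called in both, of which 1, Cox7a2, was higher in both, 12 lower in both and 22 of opposite sign, and the 5 genes named above were all below 0 at 24 h, from -0.19 for Cox6a1 to -0.024 for Ndufs3. Cox7c held 8.66% of the later counts of itself plus its pseudogenes, and its later value was 0.63 as counted and 0.26 with pseudogene counts added. Ndufa10 was named after its values were seen. Cox6a1, the common isoform of subunit 6a, was at 125, 123 and 129 against 90.7, 108 and 117 CPM at 24 h, and at 465, 437 and 534 against 304, 257 and 330.1 later. The fold changes were 0.25 ± 0.082 (SE, adjusted p = 0.016) and 0.69 ± 0.096 (SE, adjusted p = 2.4e-07), and total-count scaling turned the first to -0.19. Among the 17 lower in both were Ndufs8, Ndufb2, Ndufa4, Ndufb11, Sdha, Sdhc, Cox4i1, Atp5g1, Atp5g3 and Atp5a1. Atp5a1 was -0.24 ± 0.056 and -0.38 ± 0.058, and Cox4i1 -0.17 ± 0.057 and -0.44 ± 0.079 (SE). The 24 h call of Cox4i1 was lost without M1-like mouse 1 (adjusted p = 0.071), that of Atp5g3 without M1-like mouse 1 or M2-like mouse 2 (0.059 and 0.063), and the later call of Sdhc without M2-like replicate 3 (0.077). Uqcrh, the hinge protein of complex III, was among the 7 that turned. It was at 56.6, 56.1 and 57.1 against 52.3, 52.7 and 48.5 CPM at 24 h, 0.15 ± 0.054 (SE, adjusted p = 0.029), and at 58.3, 44.8 and 50.6 against 89.2, 74.8 and 93.2 CPM later, -0.74 ± 0.092 (SE, adjusted p = 2.8e-08). The later M1-like samples were below all M2-like ones. With total-count scaling Uqcrh was -0.29 at 24 h and -0.55 later, so that the sign no longer turned. A processed pseudogene, Uqcrh-ps1, shares 39 stretches of 50 bases with it, too few to be added here, and held 3561 counts at 24 h and 0 later beside 23691 and 41625 on Uqcrh. Ndufa12 and Atp5h also turned, at -0.41 ± 0.088 and -0.23 ± 0.087 at 24 h and 0.70 ± 0.18 and 0.52 ± 0.15 later (SE). They held 15.3% and 5.64% of the later counts of themselves plus their pseudogenes, and with pseudogene counts added the later values were 0.84 and -0.44, so that Atp5h no longer turned.

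**Figure D5:**
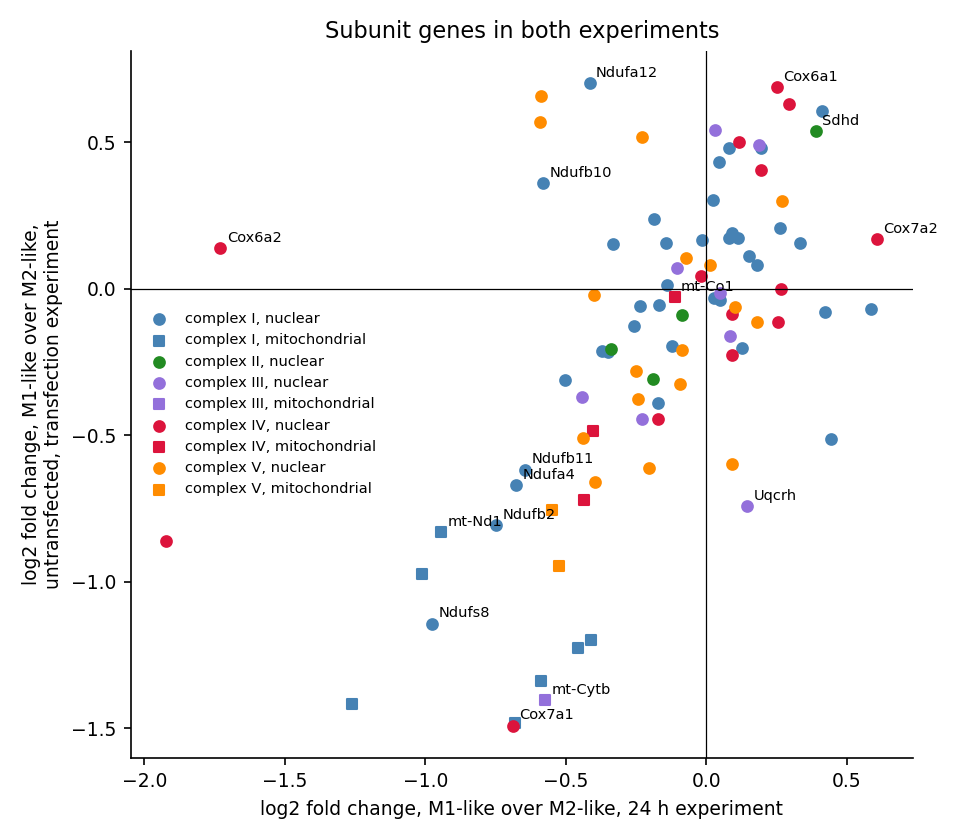
Log2 fold change of each nuclear and mitochondrial member in M1-like against M2-like cells at 24 h (x axis) and in the later untransfected cells (y axis), with 1 point per gene. Ndufs8, Ndufb2, Ndufa4 and Ndufb11 lie below 0 on both axes, Sdhd and Ndufs3 above 0 on both (at -0.044 and -0.024 on the x axis with total-count scaling), and the mitochondrial genes other than mt-Co1 lie further below 0 on the y axis than most nuclear genes.

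In the transfection experiment by complex, untransfected M1-like against M2-like cells had 8 of 37 complex I genes higher and 10 lower, 1 of 4 and 2 in complex II, 2 of 8 and 2 in complex III, 4 of 14 and 2 in complex IV, and 3 of 17 and 6 in complex V, where 31.3% of all genes were called higher and 30.2% lower. Cox8a, the common isoform of the smallest complex IV subunit, was at 135, 132 and 167 CPM in M0 cells, 243, 189 and 199 in M1-like and 163, 131 and 182 in M2-like cells, and at 218, 208 and 244 and 164, 135 and 134 CPM in M1-like and M2-like mock cells. M1-like samples were above the others in both sets, by 0.41 ± 0.13 (SE, adjusted p = 0.0069) and 0.63 ± 0.13 (SE, adjusted p = 8.9e-05), the first call being lost without M1-like replicate 1 or M2-like replicate 2 (adjusted p = 0.071 and 0.075). Cox7a2, the largest rise at 24 h, was at 77.5, 72.4 and 80.8 against 69.2, 65.0 and 71.0 CPM later, 0.17 ± 0.10 (SE, adjusted p = 0.14), which did not pass. Against M0 it was 0.25 ± 0.10 (SE, adjusted p = 0.032), and that call was lost without M0 replicate 2 or 3 or M1-like replicate 1 or 3 (adjusted p = 0.051 to 0.15). Cox4i1 was at 298, 297 and 328 CPM in M1-like and 450.4, 382 and 424 in M2-like cells, -0.44 ± 0.079 (SE, adjusted p = 1.4e-05), with M1-like cells lower in every sample. Rises of Atp5h and Cox7c in M1-like against M0 cells, 0.77 ± 0.15 (SE, adjusted p = 5.7e-05) and 0.65 ± 0.15 (SE, adjusted p = 4.6e-04), turned to -0.40 and -0.067 once pseudogene counts were added. For Atp5h in M1-like mock against M2-like mock cells the values were 0.69 and -0.56. Later M2-like cells differed little from M0 in the nuclear subunits, with 2 of 80 higher and 7 lower, and 3 of 13 mitochondrial genes higher, where 10.7% of all genes were called higher and 9.19% lower. Total-count scaling gave 1 member higher and 12 lower in place of 5 and 7. Atp5c1, mt-Co2 and mt-Nd6 were called at 0.23 ± 0.079 (SE, adjusted p = 0.034), 0.28 ± 0.10 (SE, adjusted p = 0.049) and 0.45 ± 0.14 (SE, adjusted p = 0.023), and the calls were lost without M0 replicate 1 or 2 or M2-like replicate 1 or 3 for Atp5c1 (adjusted p up to 0.13), without any one sample for mt-Co2 (up to 0.13) and without M0 replicate 1 or 3 or M2-like replicate 3 for mt-Nd6 (up to 0.12). Leaving out single samples took the count of members higher down to 1 (without M0 replicate 1 or M2-like replicate 3) or 3 (without M0 replicate 2 or 3 or M2-like replicate 1) and that of members lower to 3 (without M0 replicate 3) or 2 (without M2-like replicate 2).

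Several subunits come in isoforms that differ by tissue, and the heart and muscle forms were low here. Cox6a1 and Cox6a2, the liver and the heart form of subunit 6a, were at 102, 96.9 and 94.1 and 7.28, 6.00 and 6.53 CPM in M0 cells at 24 h. Cox6a2 was at 3.05, 3.65 and 4.51 CPM in M1-like and 11.1, 11.4 and 14.9 in M2-like cells at 24 h, the 3 groups being apart, -1.73 ± 0.16 (SE, adjusted p = 8.2e-07). Its exons overlap those of Itgad by 70 bases on the other strand, and Itgad, an integrin gene, was at 35.2, 35.1 and 32.7, 5.43, 5.42 and 3.77 and 64.6, 69.5 and 66.4 CPM in the same cells. Whether strand was kept in counting is not given in the sources used here, and the part of Itgad in the value was not tested. Later Cox6a2 was at 15.2, 11.1 and 12.7 CPM in M0, 1.19, 1.61 and 2.48 in M0 mock, 3.11, 2.68 and 5.05 in M1-like and 4.58, 3.29 and 2.05 in M2-like cells, with Itgad at 0 to 0.594 CPM over all later samples. Untransfected M0 cells were highest there, above M0 mock cells as well, and the fold change of M2-like against M0 was -1.98 ± 0.51 (SE, adjusted p = 0.0056), opposite in sign to that at 24 h. Cox7a1, the muscle form of subunit 7a, was at 0.680, 0.559 and 0.625 CPM in M0 and 0.486, 0.434 and 0.312 in M1-like cells at 24 h, and changed later in M1-like against M2-like cells by -1.49 ± 0.39 untransfected and -1.85 ± 0.37 mock (SE). Its 24 h call against M2-like cells, -0.69 ± 0.23 (SE, adjusted p = 0.016), was lost without M1-like mouse 3 (adjusted p = 0.094). Cox6b2, the testis form of subunit 6b, was nearly silent, at 0.240, 0.429 and 0.368 CPM in M0 cells, 0.0540, 0.0766 and 0.0624 in M1-like and 0.208, 0.212 and 0.326 in M2-like cells at 24 h. M1-like samples were lowest without overlap, on a handful of counts each. Log2 fold changes were -2.39 ± 0.42 against M0 and -1.92 ± 0.45 against M2-like cells (SE). Cox6b2 passed the filter on low counts only through the M0 and M2-like samples. Its calls as lower in M1-like cells are therefore no test of that difference. Ndufa4l2, a relative of Ndufa4 known to be induced by hypoxia, was at 0, 0.0186 and 0 CPM in M0 and 0.540, 0.332 and 0.395 in M1-like cells at 24 h. These levels rest on 56 counts over the experiment, and no fold is given against so few counts. Ndufa4l2 passed the filter on low counts only through the M1-like samples. Its call as higher there is therefore no test of the rise. In the transfection experiment it had 10 counts in all. Atp5g1, Atp5g2 and Atp5g3 code for the same mature ring subunit of ATP synthase. They were at 20.3 ± 0.492, 26.3 ± 0.533 and 109 ± 1.68 CPM (SD, n = 3) in M0 cells at 24 h, and Atp5g3 changed in M1-like against M2-like cells by -0.61 ± 0.10 (SE, adjusted p = 5.0e-06) later. Of the counts of themselves plus their pseudogenes, Atp5g1 and Atp5g2 held 38.6% and 35.3% at 24 h, and 14.3% and 6.56% later. Atp5g3 shared no stretch of 50 bases with another annotated gene, so the levels of the 3 genes are not on equal terms.

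The siRNA pools against transcription factors moved few subunits of the chain beyond the negative pool, and the same conditions share that pool as their control. With the mock as reference, more members were called lower for the combined, Myc, Pparg and Stat6 pools, with the counts given in the section on processing. The combined pool had 3 nuclear genes of 80 higher and 6 lower, and 1 of 13 mitochondrial genes lower, where 12.5% of all genes were called higher and 13.9% lower. The Myc pool had 3 and 6 nuclear genes and 2 mitochondrial genes lower, where 13.9% and 15.6% of all genes were called. The Pparg pool had 1 nuclear gene higher and 1 lower, where 2.71% and 3.03% of all genes were called. The E2f1 and Stat6 pools had none in edgeR, where 0.261% and 0.649% of all genes were called higher and lower for E2f1 and 0.466% and 1.04% for Stat6. At an unadjusted p under 0.05 there were 7 nuclear and 9 mitochondrial genes for E2f1 and 5 nuclear and no mitochondrial genes for Stat6. DESeq2 called 1 member higher for each, as did edgeR with the replicate number as a block. Total-count scaling moved the median of all genes by 0.13 for both the combined and the Myc pool. The split of members was then 16 higher to 0 lower in place of 3 to 7 for the combined pool. For Myc it was 25 to 0 in place of 3 to 8, and the share of all genes called was not counted under this scaling. Ndufa8, an accessory subunit of complex I, was at 61.1, 63.2 and 68.2 CPM with the negative pool, 84.4, 90.8 and 90.6 with the combined, 76.3, 94.7 and 84.9 with the Myc and 76.3, 80.2 and 91.4 with the Pparg pool. The pools were above the negative pool in every sample, by 0.47 ± 0.093 (SE, adjusted p = 2.9e-04), 0.41 ± 0.092 (SE, adjusted p = 0.001) and 0.36 ± 0.093 (SE, adjusted p = 0.014). The negative pool was itself below the mock in Ndufa8, at 77.1, 78.0 and 94.0 CPM in the mock and -0.37 ± 0.093 (SE, adjusted p = 0.0067), and against the mock the Pparg value was -0.0067. The combined and Myc means, 88.6 and 85.3 CPM, lay near the mock mean of 83.0, and their samples overlapped those of the mock.

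Core subunits moved in both directions. Ndufs7, which carries the last iron-sulfur cluster of complex I, was 0.34 ± 0.10 (SE, adjusted p = 0.015) with the combined pool and 0.41 ± 0.10 (SE, adjusted p = 0.0032) with Myc, whereas Ndufv2, a core subunit of the NADH-oxidizing end, was -0.34 ± 0.092 (SE, adjusted p = 0.0055) and -0.34 ± 0.091 (SE, adjusted p = 0.005). Cox7a2l was at 142, 128 and 116 CPM with the negative, 105, 106 and 99.8 with the combined and 113, 98.3 and 95.8 with the Myc pool, -0.31 ± 0.098 (SE, adjusted p = 0.018) and -0.32 ± 0.098 (SE, adjusted p = 0.012). Both pools were below the negative pool in every sample. Uqcrh was at 84.4, 84.2 and 82.0, 65.3, 70.9 and 76.1 and 70.1, 62.9 and 65.7 CPM in the same order, -0.24 ± 0.091 (SE, adjusted p = 0.049) and -0.33 ± 0.091 (SE, adjusted p = 0.0055), again without overlap. Calls of Cox7a2l were lost without negative pool replicate 1 (adjusted p = 0.12 and 0.092), for the combined pool also without combined replicate 3 (0.066) and for Myc without Myc replicate 2 or 3 (0.052 and 0.067). The combined-pool call of Uqcrh was lost without any one sample but combined replicate 3 (0.082 to 0.21) and that of Ndufs7 without combined replicate 3 (0.067). Ndufa3 was -0.39 ± 0.12 and -0.43 ± 0.12, Ndufa5 0.35 ± 0.10 and Atp5f1 -0.32 ± 0.083 with the combined pool, and Cox6a1 0.35 ± 0.096 with Myc (SE), where the combined-pool call was lost without combined replicate 1 or negative pool replicate 3 for Ndufa3 (adjusted p = 0.067 and 0.052) and without combined replicate 1 for Ndufa5 (0.051). Atp5g1 was -0.60 ± 0.19 with Myc and -0.16 with pseudogene counts added, and its call was lost without Myc replicate 2 or negative pool replicate 2 or 3 (adjusted p = 0.055 to 0.13). Among mitochondrial genes mt-Nd1 was called for both pools, -0.37 ± 0.13 (SE, adjusted p = 0.032) and -0.36 ± 0.13 (SE, adjusted p = 0.031), and mt-Nd6 for Myc, -0.41 ± 0.14 (SE, adjusted p = 0.03). The mt-Nd1 call for Myc was lost without any one of the 6 samples (adjusted p = 0.057 to 0.085), that for the combined pool without any but combined replicate 3 (0.059 to 0.12), and that of mt-Nd6 without Myc replicate 2 or 3 or negative pool replicate 1 or 3 (0.063 to 0.11). With E2f1 siRNA all 13 mitochondrial genes were above the negative pool, with a median of 0.28 and a smallest adjusted p of 0.19, and 11 members were called higher where the model held these 2 groups alone. The knockdown call for Ndufa4 was -0.40 ± 0.11 (SE, adjusted p = 0.022) with Pparg siRNA, 71.9, 61.0 and 58.3 against 87.8, 80.8 and 84.4 CPM, lost without Pparg replicate 2 or 3 or negative pool replicate 1 or 3 (adjusted p = 0.072 to 0.15). Single samples decided several of these counts. Members lower with the combined pool numbered 3 without combined replicate 1 or negative pool replicate 1 or 3 and 4 without combined or negative pool replicate 2, and those lower with Myc 3 without Myc replicate 2 and 5 without Myc replicate 3 or negative pool replicate 1 or 3. Members higher with Myc numbered 5 without Myc replicate 1. The single Ndufa8 call for Pparg was lost without Pparg replicate 3 or negative pool replicate 1 or 2 (adjusted p = 0.054 to 0.15), and 2 members were lower for Pparg without Pparg replicate 1.

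Other genes of the pathway were read from lists of assembly factors, electron carriers and regulators. The alternatives to the processing were run on members only, so how far the counts of these lists depend on scaling or on single samples was not tested. Total-count scaling moved the median of all genes by -0.43 in M1-like against M0 cells at 24 h and by 0.20 in later untransfected M1-like against M2-like cells. At 24 h the list of complex IV assembly factors had 9 of 17 tested genes higher and 3 lower in M1-like against M0 cells, where 35.4% of all genes were called higher and 37.5% lower. Sco1, which delivers copper to complex IV, was at 8.98, 8.24 and 8.73 CPM in M0 and 42.8, 45.2 and 46.2 in M1-like cells, 2.37 ± 0.072 (SE, adjusted p = 3.0e-11), and Coa5 at 144, 141 and 146 and 565, 556 and 581 CPM, 1.98 ± 0.060 (SE, adjusted p = 3.1e-11). Both were far above M0 in every M1-like sample. The 14 complex I assembly factors had 0 higher and 5 lower in that comparison, among them Ndufaf7, -1.30 ± 0.091 (SE, adjusted p = 7.4e-08), and 11 higher and 1 lower in later untransfected M1-like against M2-like cells, where Ndufaf7 was 0.50 ± 0.092 (SE, adjusted p = 2.4e-05) and 31.3% and 30.2% of all genes were called. At 24 h the M1-like to M2-like counts for that list were 0 higher and 7 lower, beside 34.6% and 38.1% of all genes. For complex IV assembly the later M1-like to M2-like counts were 14 of 17 higher and 1 lower, for complex III 5 of 6 and 0, for complex V 2 of 4 and 0, and for complex II 2 of 4 and 1. Cox17, the copper chaperone upstream of Sco1, was 1.54 ± 0.24 (SE, adjusted p = 2.1e-06), Sdhaf1, an assembly factor of complex II, 1.62 ± 0.27 (SE, adjusted p = 5.6e-06) and Atpaf2, an assembly factor of the ATP synthase head, 0.94 ± 0.082 (SE, adjusted p = 1.2e-11). Among the carriers, Cycs, which codes for cytochrome c, was at 16.5, 16.5 and 19.9 CPM in M0 and 37.0, 41.3 and 41.4 in M1-like cells, 1.18 ± 0.090 (SE, adjusted p = 1.6e-07), and the list of cytochrome c and ubiquinone genes had 6 of 12 higher and 2 lower against M0 at 24 h and 9 of 12 and 0 against M2-like cells later. Genes that keep and transcribe mitochondrial DNA had 2 of 13 higher and 5 lower in M1-like against M0 cells at 24 h, 3 and 7 against M2-like cells, and 8 and 0 later against M2-like cells. Those that process mitochondrial messages had 4 of 14 and 4, 4 and 6, and 8 and 1. Slirp, which guards mitochondrial messages together with Lrpprc, was 1.26 ± 0.13 (SE, adjusted p = 3.6e-06) and Hsd17b10, a subunit of mitochondrial RNase P, -1.31 ± 0.091 (SE, adjusted p = 6.2e-08) in M1-like against M0 cells. Of the nuclear regulators 7 of 10 were higher and 1 lower at 24 h. Hif1a, the hypoxia-inducible factor, was at 88.2, 91.2 and 93.0 CPM in M0 and 863, 728 and 617 in M1-like cells, and Ppargc1a, a coactivator of respiratory genes, was -3.19 ± 0.25 (SE, adjusted p = 1.8e-07). With the Myc pool 5 of 14 message-processing genes and 3 of 13 maintenance genes rose and none fell, where 13.9% of all genes were called higher and 15.6% lower, among them Fastk, 0.63 ± 0.081 (SE, adjusted p = 5.3e-07), and Polrmt, the mitochondrial RNA polymerase, 0.51 ± 0.099 (SE, adjusted p = 1.9e-04). The combined pool gave the same counts, beside 12.5% and 13.9% of all genes, with Fastk at 0.47 ± 0.081 (SE, adjusted p = 5.4e-05).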

How the data were processed

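RNA of thioglycolate-elicited peritoneal macrophages was sequenced in 54 libraries. The files hold raw read counts per gene, deposited by the authors. Per their methods and processing notes, total RNA was extracted with RNeasy Plus Mini columns, reads were trimmed with Trimmomatic, aligned to mm10 with TopHat2 and counted with featureCounts. Versions, strand and multi-mapping settings are not given in the sources used here, and reads of near-identical copies can be split between genes or lost. Technical replicates of a mouse and condition were summed. Each experiment was fitted in 1 model over all its conditions with edgeR 4.0.16 in R 4.3.3 (filterByExpr with a minimum count of 10, TMM scaling, quasi-likelihood test, two-sided), with adjustment over all genes tested: 16110 at 24 h and 14172 in the transfection experiment. Tables and figures used Python 3.11.15, pandas 2.3.3, numpy 2.4.6 and matplotlib 3.10.9. The scripts were tested on simulated counts. Depth is greatest and counting error least for the summed 24 h samples (39577911 to 59443987 counts). Members were matched by symbol and biotype in GENCODE M21 (GRCm38). Of 39179 gene IDs, 37607 had a symbol there. The annotation holds 99 matching genes, and 1 ID of Atp5o is not among the files' IDs. Cox7b2, Cox8c, Cox8b and Cox4i2 did not pass the filter, nor did Ndufa4l2 in the transfection experiment. Pseudogenes were taken as matching where at least 50 stretches of 50 bases were identical to a member. Promoters are RefSeq's (GRCm38.p6). Members, lists and tests were chosen with earlier results of these data known. Named are all mitochondrial members, complex II, the isoform sets, per comparison up to 5 nuclear members with the largest called increases and 5 with the largest called decreases (groups not overlapping, mean log2 CPM of at least 2), the highest and lowest member of each complex per kb, and at most 2 genes per list of other pathway genes. Ndufa10, Ndufs6, Atp5j, Ndufb10, Ndufb5 and AA467197 were named after their values were seen. In the 24 h experiment mouse numbers pair the samples by design. Deviations from the group means correlated with a median of 0.34 over 9 same-mouse pairs (0.0739 to 0.48) and -0.172 between different mice. Alternatives were RLE and total-count scaling, mitochondrial counts left out of the scaling, other filters on low counts, a replicate block, DESeq2 1.42.0, models of the compared groups alone, technical replicates kept apart, the mock as reference, and each sample left out. Adding pseudogene counts was chosen after seeing the data. The labels give no batch beyond the 2 experiments, which were fitted separately.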

Additional observations from a re-analysis of the deposited data

Results flagged for a closer look

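Some subunits moved one way at 24 h and the other way in the untransfected cells of the transfection experiment, past the test in each and without overlap of the groups. The difference between the experiments was itself not tested. They differ in read length, in the split of counts with pseudogenes and possibly in time after stimulation, which cannot be told apart here. Differences below are untransfected minus 24 h on the log2 scale.

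In M1-like against M0 cells, Atp5j, a peripheral stalk subunit of ATP synthase, was 0.44 at 24 h and -0.24 untransfected, a difference of -0.69. Its exons overlap Gabpa on the other strand by 397 bases. With total-count scaling Atp5j was 0.015 at 24 h and -0.15 later. Cox6b1 was 0.22 at 24 h and -0.23 untransfected, a difference of -0.45, and with total-count scaling it was -0.21 and -0.14, with no turn. Ndufa12 was -0.24 at 24 h and 0.86 untransfected, a difference of 1.09. In M2-like against M0 cells, Cox6a2 was 0.92 at 24 h and -1.98 untransfected, a difference of -2.89, and Ndufa5 was 0.30 at 24 h and -0.35 untransfected, a difference of -0.64.

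In M1-like against M2-like cells, Ndufa12 was -0.41 at 24 h and 0.70 untransfected, a difference of 1.12, and Atp5h -0.23 at 24 h and 0.52 untransfected, a difference of 0.75. With pseudogene counts added Ndufa12 was -0.38 at 24 h and 0.84 later, and Atp5h -0.23 and -0.44, so that Atp5h alone no longer turned. Atp5s was -0.59 at 24 h and 0.57 untransfected, a difference of 1.16, and it was -0.034 (adjusted p = 0.89) between mock-treated cells. Ndufb10 was -0.58 at 24 h and 0.36 untransfected, a difference of 0.94, and Ndufb5, which shares 616 exon bases with Mrpl47, -0.19 at 24 h and 0.24 untransfected, a difference of 0.43. Uqcrh was 0.15 at 24 h and -0.74 untransfected, a difference of -0.89, and with total-count scaling it was -0.29 at 24 h and -0.55 later, with no turn.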

How the results depend on the processing

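Of 207 called values of named members, 139 kept their direction and call under all their alternatives and 68 did not under at least 1. Over 3194 alternative values 2960 stayed called in the same direction, 221 were no longer called and 13 changed sign. The cause of a change was not tested unless named. Counts below are of members called higher or lower, and the share of all genes called was not counted under these alternatives. With total counts as the only scaling, members higher and lower were 6 and 66 in M1-like against M0 and 2 and 80 in M1-like against M2-like cells at 24 h, 37 and 15 in mock-treated and 32 higher in untransfected M1-like against M2-like cells, 1 and 12 in untransfected M2-like against M0, 16 and 0 for the combined and 25 and 0 for the Myc pool, and 1 higher for E2f1 and Stat6. Signs turned in M1-like against M0 for Cox6a1 (-0.069), Cox6b1 (-0.21), Cox8a (-0.11) and Sdhb (-0.23), in M1-like against M2-like at 24 h for Cox6a1 (-0.19), Ndufa11 (-0.015), Ndufs3 (-0.024) and Sdhd (-0.044), and between mock cells for Sdhb (0.056). With pseudogene counts added, signs turned for Atp5h (-0.40) and Cox7c (-0.067) in untransfected M1-like against M0 and for Atp5h (-0.56) between mock cells, and 1 member was higher with the negative pool. With the mock as reference Ndufa8 under Pparg siRNA turned (-0.0067), and higher and lower were 7 and 19 for the combined, 8 and 21 for Myc, 0 and 12 for Pparg and 1 and 7 for Stat6 pools, with 1 higher for E2f1. Without the filter, 10 were higher in untransfected M2-like against M0, 9 lower in the M2-like mock, 0 higher with the negative pool, 13 lower with the combined, 6 higher with E2f1, 5 and 15 with Myc, 2 and 3 with Pparg, 1 higher with Stat6, and 9 higher in the mock to untransfected difference. With at least 10 counts in every sample 1 was higher with E2f1 and 1 with Stat6. DESeq2 gave 1 higher for E2f1, 4 lower for Pparg and 1 higher for Stat6. Models of the compared groups alone gave 11 higher in untransfected M2-like against M0, 1 lower in the mock, 1 higher with the negative pool, 6 and 16 with the combined, 11 higher with E2f1, 10 and 19 with Myc, 5 lower with Pparg and 1 higher with Stat6. Technical replicates kept apart gave 3 lower in M2-like against M0.

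With each sample left out in turn, counts ranged from 29 to 37 higher and 24 to 28 lower in M1-like against M0 at 24 h, 23 to 50 and 1 to 1 in M2-like against M0, 14 to 18 and 36 to 47 in M1-like against M2-like, 13 to 18 and 26 to 37, 1 to 6 and 2 to 8, and 14 to 19 and 28 to 36 in the same comparisons of untransfected cells in that order (M1-like against M0, M2-like against M0, M1-like against M2-like), 15 to 21 and 23 to 35 between mock cells, 0 to 2 and 8 to 12 with the negative pool, 2 to 3 and 3 to 10 with the combined, 3 to 5 and 3 to 8 with Myc, 0 to 1 and 0 to 2 with Pparg, and 0 to 0 with E2f1, Stat6 and the M2-like mock. The mock to untransfected difference ranged from 0 to 2 higher and 0 to 0 lower.

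With the mouse as a replicate block no count at 24 h moved by over 1.5 times, and the one call lost there was that of Sdha. In the transfection experiment the labels give same-numbered samples nothing in common but the number, and what else these samples share is not stated. Their deviations correlated with a median of 0.187 and a lowest value of -0.264, against -0.0869 between numbers, and 34 of 36 samples correlated best with their own number. A replicate block there gave 8 higher in untransfected M2-like against M0, 5 with the combined, 1 with E2f1, 6 with Myc, 2 higher and 4 lower with Pparg, and 1 higher with Stat6. Depth limits the isoforms with few counts, and low later counts limit members that share reads with pseudogenes.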

Other observations

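A gene outside the member list had a larger fold change at 24 h than any subunit. AA467197, also called Nmes1, is a relative of Ndufa4 and was named after its values were seen. At 24 h it was at 1.24, 0.914 and 1.25 CPM in M0, 509, 465 and 526 in M1-like and 8.06, 6.52 and 7.09 in M2-like cells, 8.78 ± 0.13 (SE, adjusted p = 1.6e-13) in M1-like against M0 and 6.12 ± 0.11 (SE, adjusted p = 5.3e-13) against M2-like cells. In the transfection experiment it was at 116 to 141 CPM in M1-like cells, 2.79 to 3.07 in the M2-like mock and 8.69 to 9.63 with the negative pool. With the combined pool it was at 14.4 to 17.6 CPM, 0.83 ± 0.14 (SE, adjusted p = 3.8e-05), and with the Pparg pool at 13.2 to 17.1 CPM, 0.70 ± 0.14 (SE, adjusted p = 0.002). No hypothesis was tested on it.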
